A study of Mus musculus with 8 samples.

Results

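The fatty acid desaturases and elongases of mouse liver were followed after delivery of the transcription factor ATF3 to hepatocytes. The 10 genes were taken by name (Scd1, Scd2, Fads1, Fads2, Fads3, Elovl1, Elovl2, Elovl3, Elovl5 and Elovl6), and all 10 were found among the 24972 genes listed. The ATF3 group was C57BL/6J mice injected into a vein with the adeno-associated virus AAV8-ALB-ATF3, and the Null group was C57BL/6J mice given AAV8-ALB-Null, the same vector named for no gene. ALB was read as the albumin promoter, which is active in hepatocytes and not in the other cells of the liver. Mice were 10 weeks old at injection, and livers were taken 8 weeks later, at 18 weeks. There were 4 libraries per group and 8 in all, while the design text states 8 mice per group, and the labels do not say whether a library is 1 mouse. The p-values therefore measure the spread between these libraries.

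Desaturases place double bonds into fatty acyl-CoA, and elongases start each round that lengthens it by a pair of carbons. The saturated and monounsaturated branch works on the palmitate that the liver makes itself: Elovl6 lengthens palmitate to stearate, Scd1 and Scd2 turn stearate and palmitate into oleate and palmitoleate, and Elovl1 and Elovl3 build very long saturated and monounsaturated chains. The polyunsaturated branch works on dietary linoleic and alpha-linolenic acid, which Fads2, Elovl5, Fads1 and Elovl2 convert in turn to arachidonic acid and to docosahexaenoic acid. In liver several genes of these branches, though not all, are known targets of SREBP-1c, the product of Srebf1, and of the nuclear receptors LXR and PPARalpha. Fads3 stands apart from both branches, as an enzyme that desaturates sphingoid bases. ATF3 is a stress-induced factor of the bZIP class, a class that binds the CRE sequence TGACGTCA.

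Promoters of 3 genes are shown because Elovl5 and Elovl2 were the genes that rose and Elovl6 is a saturated-chain elongase that was not called. Elovl1, which also was not called, is not shown. Each run is 300 bases of GRCm38.p6 from RefSeq, 250 before and 50 after an annotated start, read 5′ to 3′ on the strand of the gene. The Elovl5 window is chr9:77917115-77917414 on the plus strand, the Elovl2 window chr13:41220354-41220653 on the minus strand and the Elovl6 window chr3:129532136-129532435 on the plus strand. Capitals mark the motifs searched for on both strands: the full CRE, its part TGACGT, which lies inside it, the E-box CACGTG, the AP-1 site TGACTCA, the NF-Y box CCAAT, which reads ATTGG when it lies on the other strand, and the sterol regulatory element with its part CACCCCAC.
Elovl5: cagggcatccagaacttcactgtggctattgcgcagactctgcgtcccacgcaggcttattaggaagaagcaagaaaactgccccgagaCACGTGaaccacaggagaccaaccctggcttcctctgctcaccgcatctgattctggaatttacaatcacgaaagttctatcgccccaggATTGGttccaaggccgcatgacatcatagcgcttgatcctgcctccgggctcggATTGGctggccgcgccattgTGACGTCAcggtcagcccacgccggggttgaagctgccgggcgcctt
Elovl2: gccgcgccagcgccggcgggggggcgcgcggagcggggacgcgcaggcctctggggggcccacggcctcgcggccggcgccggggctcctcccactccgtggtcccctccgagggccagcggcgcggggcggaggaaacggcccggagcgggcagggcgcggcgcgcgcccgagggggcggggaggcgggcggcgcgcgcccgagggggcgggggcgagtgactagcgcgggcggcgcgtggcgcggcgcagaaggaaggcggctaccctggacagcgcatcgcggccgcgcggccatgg
Elovl6: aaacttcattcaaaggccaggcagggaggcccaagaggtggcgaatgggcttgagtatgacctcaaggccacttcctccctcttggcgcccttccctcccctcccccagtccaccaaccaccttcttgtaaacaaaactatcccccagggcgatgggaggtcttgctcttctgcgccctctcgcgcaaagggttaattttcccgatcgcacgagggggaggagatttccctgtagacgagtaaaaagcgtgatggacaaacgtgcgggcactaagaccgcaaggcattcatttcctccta

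The Elovl5 window held a full CRE at its bases 254 to 261, just past the annotated start, an E-box at bases 90 to 95, and an NF-Y box on the opposite strand at bases 180 to 184 and again at 234 to 238. Neither the Elovl2 nor the Elovl6 window held any of these motifs. Of 32851 promoters of the same length, 1.79% held a full CRE, 7.51% its part TGACGT, 7.15% the E-box, 37.4% the NF-Y box and 5.2% the AP-1 site. The sterol regulatory element was in 0.0913% and its part CACCCCAC in 2.87%. Promoters matched for 6 of the 10 genes, in 8 windows, and the full CRE was in the Elovl5 window and in no other of these 8. Scd1, Scd2, Fads1 and Elovl3 had no matched window and were not searched. Neither gene called lower below (Scd1 and Elovl3) was therefore covered. Elovl1 and Fads3 had NF-Y boxes in 1 window each, and the Fads2 window had no match. A match describes these letters and is no measured binding site.

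The delivered gene was read first as a check of the labels. Atf3 held 5611, 5886, 7053 and 6722 normalized counts in ATF3 1 to 4, against 24.2, 22.5, 24.5 and 20.3 in Null 1 to 4, a log2 change of 8.05 (SE 0.11). Transcripts of the vector and of the mouse's own gene cannot be told apart in these values. The deposited normalized counts summed to 23919261 to 28446045 per library. A rough depth, which takes the most frequent nonzero value of a library as 1 read, was 17168010 to 48546623 reads. Of 13301 genes tested, 11.4% were called higher and 9.82% lower in ATF3, 21.2% in all, and the groups did not overlap for 26.3%. With columns scaled to equal sums the split of calls moved to 2472 higher and 837 lower, against 1513 and 1306 as deposited, and the median change of all genes moved to 0.13, against 0.00681. With the deposited TPM it was 440 higher and 76 lower, and the median of all genes moved to 0.68 on the log2 scale. TPM values share a fixed total, of which the small-RNA locus Mir6236 took from 0.308% (Null 4) to 89.4% (Null 1). TPM is therefore used here for the makeup within a library. Changes between groups in unscaled TPM are given only as an alternative, to be read against that median of 0.68.

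Hepatocyte markers were present throughout, with 6 markers summing to 2580280 to 3099080 normalized counts in ATF3 and 1800060 to 3040660 in Null, and Ttr and Tat were called higher and Serpina1c and Cps1 lower. None of 6 endothelial and none of 6 macrophage markers was called, and the sums were 9136 to 9422 in ATF3 and 9117 to 10854 in Null for endothelial markers and 6376 to 9022 in ATF3 and 5449 to 7982 in Null for macrophage markers. Of 6 stellate cell markers 1 was called lower (Rgs5, sums of 6217 to 8826 in ATF3 and 7488 to 10866 in Null). Of 6 cholangiocyte markers 2 were called lower (Sox9 among them, sums of 1076 to 1451 in ATF3 and 1109.6 to 1737 in Null). Of 6 white adipocyte markers, 1 passed the filter on low values and was not called (sums of 146 to 167 in ATF3 and 110.2 to 299 in Null), and the brown fat gene Ucp1 was listed at 0 in all 8 libraries. Of 4 brown adipocyte markers, 1 passed that filter and was called lower (Cox7a1, sums of 4.22 to 11.5 in ATF3 and 17.0 to 26.9 in Null). Of 4 erythroid and 4 lymphocyte markers, 2 of each passed it and none was called (erythroid sums of 6990.4 to 12292 in ATF3 and 7782 to 11609 in Null, lymphocyte sums of 580.4 to 857 in ATF3 and 489 to 791 in Null). Their part in the results was not tested.

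Among the 10 genes, both elongases of the polyunsaturated branch rose, while the main monounsaturated desaturase and 1 saturated-branch elongase fell. Elovl5 and Elovl2 were called higher, Scd1 and Elovl3 lower, and 6 genes were not called, so 4 of 10 were called against 21.2% of all tested genes. By direction these are 2 of 10 higher, against 11.4%, and 2 of 10 lower, against 9.82%. All 10 genes passed the filter of 10 normalized counts in all 8 libraries. No overlap between groups was seen for 4 genes (Elovl5, Elovl2, Elovl3 and Fads1), against 26.3% of all genes. In whole liver, fewer cells of a type and less RNA per cell cannot be told apart.

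**Figure D1:**
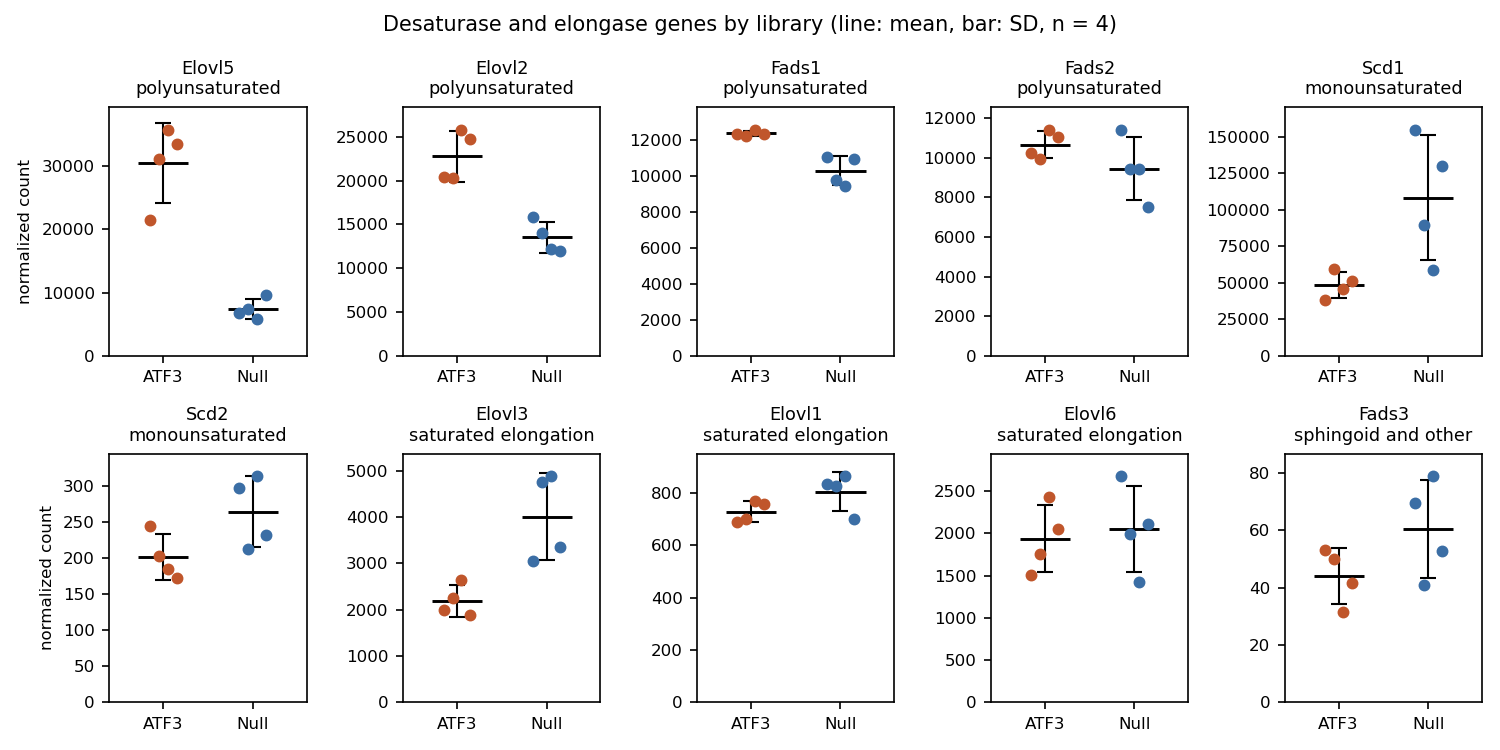
Normalized counts of the 10 genes in each library (y axes, from 0), with ATF3 libraries left and Null libraries right; points are libraries, lines are means and bars are SD (n = 4 each). The 4 ATF3 libraries of Elovl5 (lowest 21409.6) lie above all 4 Null libraries (highest 9649), while Elovl3 lies below. The Elovl3 direction turns with unscaled TPM (0.14), where the median log2 change of all genes is 0.68.

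Elovl5, the elongase that extends the products of Fads2 and supplies the substrate of Fads1, changed most. It held 21409.6, 31062, 35767 and 33481 normalized counts in ATF3 1 to 4, against 6836, 7444, 5781 and 9649 in Null 1 to 4. Every ATF3 library lay above every Null library, and ATF3 1 was the lowest of its group. The log2 change was 2.03 (SE 0.19, 95% interval 1.61 to 2.46, limma adjusted p = 5.3e-05), a 4.09-fold rise. Elovl5 passed in all 23 alternatives run, with log2 changes of 1.82 to 2.23 apart from the unscaled TPM, where it was 3.01 (adjusted p = 0.0175). No 31-base stretch of its transcripts occurs in another gene.

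Elovl2 takes the chain further, to the long precursors of docosahexaenoic acid. It held 20358, 20261, 25819 and 24762 normalized counts in ATF3 1 to 4, against 15799.9, 14071, 12240.3 and 12008 in Null 1 to 4. The groups did not overlap, although Null 1 came closer to the ATF3 libraries than the other Null libraries did. The log2 change was 0.75 (SE 0.13, 95% interval 0.47 to 1.04, limma adjusted p = 0.00229), a 1.69-fold rise. Leaving out each library in turn kept Elovl2 past the threshold, with adjusted p-values from 0.00237 to 0.0108.

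The desaturases of the same branch moved less. Fads2, which opens the pathway from both dietary fatty acids, held 10269.9, 9918, 11381 and 11062 normalized counts in ATF3 1 to 4, against 11425, 9419.8, 9435 and 7516 in Null 1 to 4. The groups overlapped, with the highest value in Null 1, and the log2 change of 0.19 did not pass (95% interval -0.09 to 0.47, limma adjusted p = 0.333). Fads1, which completes arachidonic and eicosapentaenoic acid, held 12342, 12197, 12560.2 and 12332 normalized counts in ATF3 1 to 4, against 11017, 9778, 9419 and 10949.7 in Null 1 to 4. All 4 ATF3 libraries lay above the Null libraries, by a small margin and with little spread among them. Its log2 change of 0.27 (SE 0.09, 95% interval 0.07 to 0.46) gave a limma adjusted p of 0.0553, and an exact two-sided permutation of the libraries gave p = 0.0286, the smallest that 4 against 4 allows. The adjusted p of Fads1 was 0.0264 without Null 4, and with all libraries kept it also passed under some scalings (0.0055 with equal column sums). The upper bound of the interval was a 1.38-fold rise for both Fads2 and Fads1, and the lower bound for Elovl5 was 3.05-fold.

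Scd1, the main hepatic stearoyl-CoA desaturase, fell in the same livers. It held 37912, 59121, 45448 and 51159 normalized counts in ATF3 1 to 4, against 154751, 89339, 59055 and 130168 in Null 1 to 4. The highest ATF3 library and the lowest Null library met at nearly the same value (ATF3 2 and Null 3), and the Null libraries spread widely. The log2 change was -1.09 (SE 0.28, 95% interval -1.70 to -0.47, limma adjusted p = 0.019), a 2.13-fold fall. The call was lost without ATF3 1 (adjusted p = 0.0525), without ATF3 3 (0.0566) and without ATF3 1 and Null 1 together (0.106), while the change stayed negative in all alternatives, between -1.35 and -0.77 apart from unscaled TPM at -0.08. An exact two-sided permutation gave p = 0.0571 for Scd1.

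Scd2, whose enzyme makes the same products and is known mainly from brain and from the liver of newborn mice, was present at a far lower level. It held 245, 202, 185 and 172 normalized counts in ATF3 1 to 4, against 297, 212, 313 and 232 in Null 1 to 4. The groups overlapped, and Null 1 and Null 3 were the highest libraries. The log2 change of -0.38 (95% interval -0.75 to -0.02) did not pass over all genes (limma adjusted p = 0.124). Among white adipocyte markers, Adipoq and Plin1 held 38.7 and 21.1 normalized counts in Null 3 and 0 in Null 1, against at most 4.49 and 1.12 in any ATF3 library, while Cidea was listed at 0 in Null 3. The bile duct genes Krt19 and Epcam held 157 and 131 in Null 1 and 96.2 and 56.2 in Null 3, against at most 45.9 and 43.5 in any ATF3 library. The other markers of that list did not all follow: Krt7 was at the same level in ATF3 3 and Null 3, Sox9 was higher in Null 2 (174) than in Null 3 (150), and Spp1 was highest in ATF3 2 (1139), against 818 in Null 1. The part of these transcripts in the Scd2 values was not tested. Leaving out Null 1 and Null 3, a choice made after seeing these values, put Scd2 at -0.16 (limma adjusted p = 0.603). As these were the highest libraries, leaving them out had to shrink the fall, whatever the source of the transcripts. For reads that copies could share, 8.18% of the 31-base stretches of Scd1 and 6.81% of those of Scd2 occur in other genes, foremost Scd3, and Scd3 and Scd4 were too low to be tested.

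In the saturated branch only Elovl3 was called. This elongase of saturated and monounsaturated very long chains is known in mouse liver as more abundant in males and as under circadian control. It held 1992, 2252, 2649 and 1882 normalized counts in ATF3 1 to 4, against 3042, 4755, 4882 and 3356 in Null 1 to 4. The groups did not overlap, and the Null libraries fell into a higher pair (Null 2 and Null 3) and a lower pair. The log2 change was -0.85 (SE 0.17, 95% interval -1.24 to -0.47, limma adjusted p = 0.00618), a 1.80-fold fall, and it turned to 0.14 in unscaled TPM, below the median of all genes there. Leaving out each library in turn kept the call, with adjusted p-values from 0.00322 to 0.0245.

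Elovl6, which links palmitate to stearate, was not called. It held 1503, 1756, 2433 and 2052 normalized counts in ATF3 1 to 4, against 2675, 1989, 1427 and 2105 in Null 1 to 4. The libraries were interleaved, with the lowest and the highest of all 8 both in the Null group. The log2 change was -0.07, with a 95% interval of -0.51 to 0.37 and a limma adjusted p of 0.839, and it took either sign as scaling and libraries varied. Elovl1, which serves the very long acyl chains of ceramides, held 691, 699, 769 and 757 normalized counts in ATF3 1 to 4, against 833, 826, 864 and 699 in Null 1 to 4. Only Null 4 lay among the ATF3 libraries, and the log2 change of -0.14 did not pass (95% interval -0.36 to 0.07, limma adjusted p = 0.342).

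Fads3, the sphingoid base desaturase, was the least abundant member. It held 53.1, 50.1, 31.5 and 41.5 normalized counts in ATF3 1 to 4, against 69.6, 40.8, 78.8 and 52.7 in Null 1 to 4. The groups overlapped, and the highest values again were in Null 3 and Null 1, whose bile duct and, for Null 3, adipocyte transcripts are given above. The log2 change of -0.43 had a 95% interval of -0.98 to 0.12 (limma adjusted p = 0.254). Without Null 1 and Null 3, a choice made after seeing the values, it was -0.10. Those libraries held the highest Fads3 values, so leaving them out had to shrink the fall. The part of bile duct or adipocyte transcripts in the Fads3 values was not tested.

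**Figure D2:**
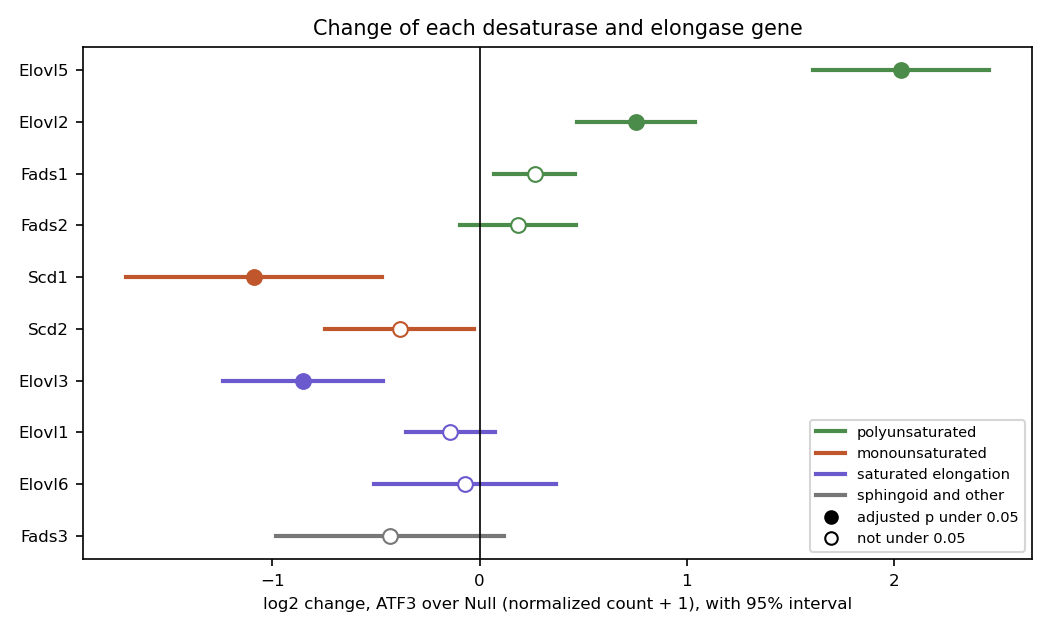
Log2 change, ATF3 over Null, of each gene (x axis, normalized count + 1) with its 95% interval, coloured by branch; filled points passed an adjusted p of 0.05 over all genes. Elovl5 (2.03) and Elovl2 (0.75) lie to the right of 0 with Scd1 (-1.09) and Elovl3 (-0.85) to the left. In unscaled TPM, where the median of all genes is 0.68, Elovl3 (0.14), Elovl1, Elovl6, Scd2 and Fads3 turn sign.

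Set side by side, the branches had different middles. The median log2 change was 0.51 over the 4 polyunsaturated genes, with 2 called higher and none lower. It was -0.74 over the 2 monounsaturated desaturases, with 1 called lower, and -0.14 over the 3 elongases of the saturated branch, with 1 called lower. The median over all genes tested was 0.00681 and that over the 10 genes -0.11. Each branch holds few genes, so the difference between branches is described and was not tested. The intervals of Scd1 and Scd2 overlapped, as did those of Elovl3 and Elovl6, and differences between genes of a branch were not tested.

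The makeup of the family per length was compared as shares of the summed TPM of the 10 genes, which do not depend on the scale of a library. Shares add to 100%, so a larger share of 1 gene lowers those of the rest. Scd1 made up 22.8%, 28.8%, 21.1% and 24.2% of the family's TPM in ATF3 1 to 4, against 60.7%, 48.5%, 39.9% and 59.8% in Null 1 to 4. The groups did not overlap here, although the normalized counts of Scd1 met at 1 pair of libraries. Elovl5 made up 24.9%, 29.2%, 32.0% and 30.5% in ATF3 1 to 4, against 5.16%, 7.79%, 7.53% and 8.54% in Null 1 to 4. Again the groups were apart, and Elovl5 ranked first of the 10 genes in all 4 ATF3 libraries, where Scd1 ranked first in all 4 Null libraries.

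**Figure D3:**
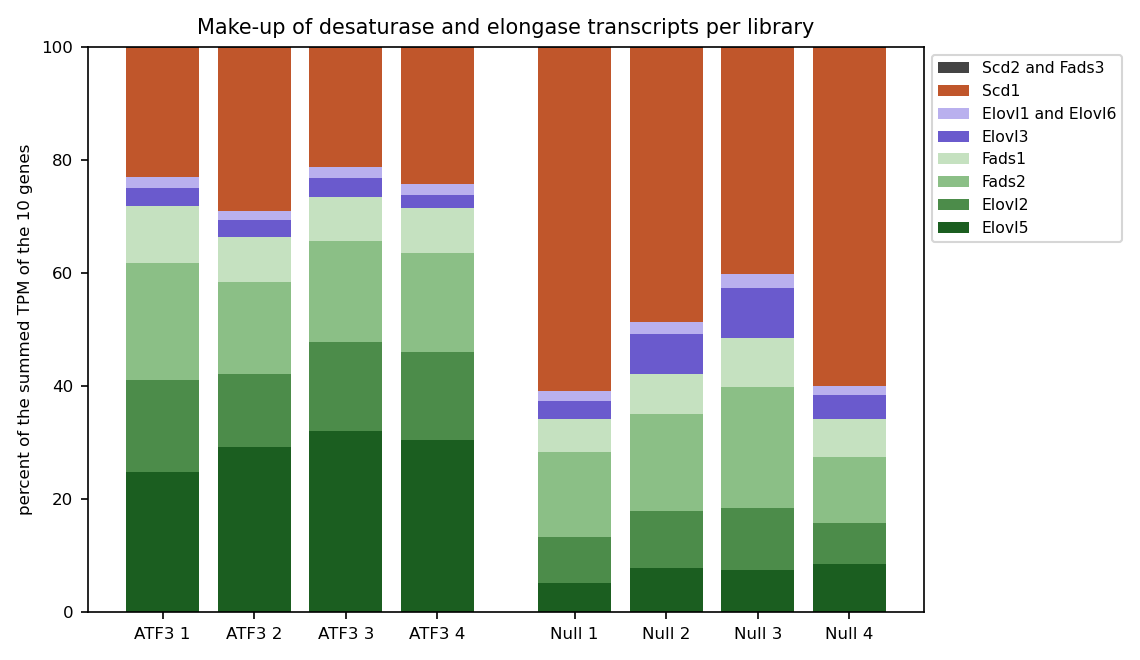
Share of each gene in the summed TPM of the 10 genes (y axis, percent) in each library, ATF3 1 to 4 left and Null 1 to 4 right. Green segments are the polyunsaturated branch, which makes up 66.4% to 73.5% in ATF3 and 34.2% to 48.5% in Null.

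In ATF3 livers the order of TPM was Elovl5, Scd1, Fads2, Elovl2, Fads1, Elovl3, Elovl1, Elovl6, Scd2 and Fads3 in each of the 4 libraries. Mean shares of the first 6 were 29.2% ± 3.10 (Elovl5), 24.2% ± 3.29 (Scd1), 18.1% ± 1.92 (Fads2), 15.1% ± 1.43 (Elovl2), 8.40% ± 1.05 (Fads1) and 3.0% ± 0.417 (Elovl3), each SD with n = 4. The ranges of Elovl5 and Scd1 overlapped between libraries, as did those of Elovl1 and Elovl6 at about 1% and below. In Null livers Scd1 came first at 52.2% ± 9.89 and Fads2 second at 16.4% ± 4.12 (SD, n = 4). Elovl2 at 9.11% ± 1.68, Elovl5 at 7.26% ± 1.46, Fads1 at 7.05% ± 1.14 and Elovl3 at 5.84% ± 2.62 followed (SD, n = 4), and their order changed from library to library. Scd2 and Fads3 together stayed a trace in both groups, with Scd2 at 0.0876% in ATF3 and 0.117% in Null and Fads3 at 0.0321% in ATF3 and 0.0450% in Null. Summed over branches, the polyunsaturated genes made up 70.8% ± 3.05 in ATF3 and 39.8% ± 6.92 in Null (SD, n = 4 each), without overlap. The 3 saturated-branch elongases made up 4.81% ± 0.489 in ATF3 and 7.84% ± 2.94 in Null (SD, n = 4 each), and their ranges overlapped.

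Ratios of TPM within a library gave the relation between single steps. The ratio of Elovl5 to Scd1 was 1.09, 1.01, 1.52 and 1.26 in ATF3 1 to 4, against 0.0851, 0.161, 0.189 and 0.143 in Null 1 to 4. Elovl5 transcripts thus equalled or exceeded those of Scd1 in ATF3 livers and were a small part of them in Null livers. Elovl5 over Elovl6, the polyunsaturated against the saturated elongase, was 36.3 ± 3.64 in ATF3 and 8.60 ± 1.98 in Null (SD, n = 4 each). Elovl5 over Fads2, the elongase against the desaturase that precedes it, was 1.63 ± 0.292 in ATF3 and 0.470 ± 0.183 in Null (SD, n = 4 each), and Elovl5 over Elovl2 was 1.94 ± 0.295 in ATF3 and 0.817 ± 0.245 in Null. For these pairs the groups did not overlap. By contrast the ratio of both front-end desaturases, Fads2 over Fads1, was 2.16 ± 0.116 in ATF3 and 2.31 ± 0.401 in Null (SD, n = 4 each), with overlapping libraries.

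Of the 10 genes, 6 lie on chromosome 19. In GRCm38 coordinates from GENCODE, Fads3 (10041569 to 10060110, plus strand), Fads2 (10062765 to 10101746, minus strand) and Fads1 (10182888 to 10196877, plus strand) form a cluster, and none of the 3 was called. Fads3 and Fads2 lie 2.66 kb apart, and had log2 changes of -0.43 and 0.19. Scd2 (44293674 to 44306864, plus strand) and Scd1 (44394455 to 44407879, minus strand) lie 87.6 kb apart. Scd1 was called lower and Scd2 was not called. Elovl3 (46131897 to 46135694, plus strand) is on the same chromosome. Elovl5 lies on chromosome 9 (77917364 to 77984519, plus strand), Elovl2 on chromosome 13 (41182381 to 41220405, minus strand), Elovl6 on chromosome 3 (129532355 to 129638495, plus strand) and Elovl1 on chromosome 4 (118428093 to 118432953, plus strand).

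Lists of genes around the 10 were counted next, and each count stands against 11.4% higher and 9.82% lower over all genes, with no test of a list. Of the other desaturases and elongases, 3 of 7 could be tested, and 1 rose: Degs1, the dihydroceramide desaturase, with 2758 ± 291 normalized counts in ATF3 and 1818 ± 45.0 in Null (SD, n = 4 each, log2 change 0.59, limma adjusted p = 0.00154). Elovl7 (0.65, adjusted p = 0.44) and Fads6 (-0.17, adjusted p = 0.251) did not pass. An elongation round needs a ketoreductase, a dehydratase and an enoyl reductase beside the elongase, and 1 of 6 tested genes of that list was called higher and none lower. It was the dehydratase gene Hacd3, at 0.45 (limma adjusted p = 0.0355), which passed without ATF3 1 or without Null 4 but missed the threshold when any 1 of the other 6 libraries was left out (adjusted p of 0.0781 to 0.0996). The dehydratase gene Hacd2 was at -0.75 (adjusted p = 0.0543), with 570 normalized counts in Null 4 against 1298 to 1334 in the other Null libraries, and passed without Null 4 (adjusted p = 1.35e-05). The enoyl reductase gene Tecr was at 0.21 (adjusted p = 0.123).

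Desaturases draw electrons from cytochrome b5 and its reductase, and of 5 tested genes 1 was called higher and 1 lower. Cyb5b, the form of the outer mitochondrial membrane, rose by 0.39 (limma adjusted p = 0.0305), and Cyb5a, the microsomal form, fell by 0.49 (adjusted p = 0.0455). The Cyb5a change turned to 0.52 in unscaled TPM, below the median of all genes there. Left out singly, each library but Null 4 took the Cyb5b call away (adjusted p of 0.0528 to 0.0887), and each but ATF3 2, Null 1 and Null 3 took away that of Cyb5a (0.0568 to 0.111). The reductase gene Cyb5r3 was at 0.19 (adjusted p = 0.285).

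For palmitate and malonyl-CoA supply, 3 of 9 tested genes rose, none fell and 6 were not called. This stands against 11.4% higher over all genes, and the list median was 0.18. The genes of both acetyl-CoA carboxylases, which make malonyl-CoA, were among the 6, with Acaca at -0.15 (limma adjusted p = 0.519) and Acacb at 0.13 (adjusted p = 0.529). Acly, the source of cytosolic acetyl-CoA, had 11868 ± 1796 normalized counts in ATF3 and 4822 ± 581 in Null, and Fasn, the fatty acid synthase, 18085 ± 2228 in ATF3 and 9775 ± 1559.9 in Null (SD, n = 4 each). Their log2 changes were 1.29 (limma adjusted p = 0.000102) and 0.89 (adjusted p = 0.0013). Thrsp, the lipogenic Spot 14 gene, rose by 2.09 (adjusted p = 0.000205). Scd1 thus fell in livers in which these genes rose, and Elovl6, between Fasn and Scd1 in the pathway, was not called.

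Among regulators of desaturase and elongase genes, 6 of 23 rose and 3 fell, with a list median of 0.12. Srebf1, which encodes SREBP-1c, had 9014, 9132, 9975 and 9914 normalized counts in ATF3 1 to 4, against 3763, 4439, 3394 and 3931 in Null 1 to 4. The groups lay far apart, with a log2 change of 1.30 (SE 0.10, limma adjusted p = 1.4e-05). Mlx, the partner of the carbohydrate-response factor, rose by 0.64 (adjusted p = 0.00102), and the coactivator gene Ppargc1a rose by 0.77 (adjusted p = 0.000634). Their counterparts went the other way. Mlxipl, the gene of the carbohydrate-response factor itself, was called lower at -0.44 (limma adjusted p = 0.0336). Ppargc1b, the related coactivator gene, was called lower at -0.86 (adjusted p = 0.00269). The other calls of the list, by the same test, were Insig1, Insig2 and Ppara (higher) and Stat5a (lower).

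**Figure D4:**
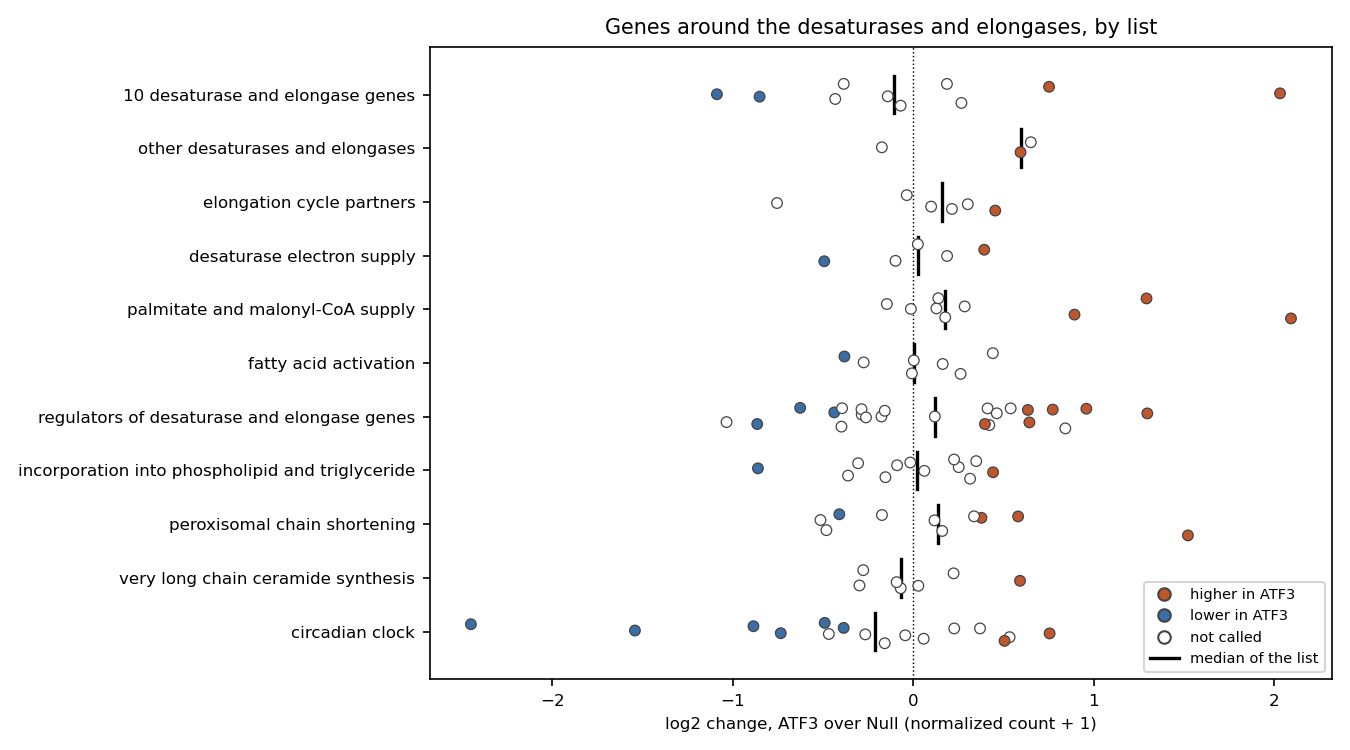
Log2 change, ATF3 over Null (x axis, normalized count + 1), of the 10 genes and of the tested genes of 10 lists (rows); each point is a gene, filled where called, and the black bar is the list median. Acly (1.29), Thrsp (2.09) and Srebf1 (1.30) lie to the right, while Scd1 (-1.09) and Dgat2 (-0.86) lie to the left. The Dgat2 change turned to 0.14 in unscaled TPM, where the median of all genes is 0.68.

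Genes that use the products came next. In the list of incorporation into phospholipid and triglyceride, 1 of 12 tested genes rose, 1 fell and 10 were not called. These counts are near the shares over all genes, 11.4% higher and 9.82% lower, with 10482 of 13301 tested genes not called. The list median was 0.02. Both called genes encode enzymes that close triglyceride synthesis. Dgat2, known to prefer newly made fatty acids, had 5400.0 ± 446 normalized counts in ATF3 and 9814 ± 981 in Null (SD, n = 4 each, log2 change -0.86, limma adjusted p = 0.000249). The Dgat2 change turned to 0.14 in unscaled TPM, below the median of all genes there. Dgat1 rose by 0.44 (adjusted p = 0.0234), and missed the threshold when ATF3 2, 3 or 4 or Null 2 or 3 was left out (0.0558 to 0.0715). Mboat7, which places arachidonic acid into phosphatidylinositol, was at -0.31 (adjusted p = 0.0591).

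The last steps to docosahexaenoic acid shorten the chain made with Elovl2 in peroxisomes, and 3 of 10 tested genes of that list rose and 1 fell (Abcd3, -0.41, limma adjusted p = 0.0469). That list had 0 lower genes when any library but Null 4 was left out, with no filter, and with equal column sums or upper quartiles. Acaa1a, a peroxisomal thiolase gene, rose by 0.38 (adjusted p = 0.0274), and missed the threshold when a library other than ATF3 1, Null 2 or Null 4 was left out (0.0513 to 0.0814). In fatty acid activation, 1 of 7 tested genes was called, Acsl1, which fell by 0.38 (adjusted p = 0.0363). The Acsl1 change turned to 0.62 in unscaled TPM, below the median of all genes there. Leaving out any single ATF3 library, Null 1 or Null 2 ended the Acsl1 call (0.0528 to 0.103). Acsl4, an acyl-CoA synthetase gene whose enzyme prefers arachidonic acid, was at 0.44 (adjusted p = 0.0875) and passed without ATF3 2 (adjusted p = 0.028). Slc27a2 was at -0.27 (adjusted p = 0.0718).

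Of 7 genes of ceramide synthesis, 1 rose. It was Cers6, at 0.59 (limma adjusted p = 0.00406), whose enzyme is known to use palmitoyl-CoA rather than the very long chains made with Elovl1. Cers2, the synthase gene for very long chains, was at -0.07 (adjusted p = 0.741). Sptlc2 at 0.22 (adjusted p = 0.182) and Cers4 at -0.28 (adjusted p = 0.268) did not pass, and Sptlc2 passed without Null 4 (adjusted p = 0.0343). Of 16 circadian genes tested, 2 rose (Per2 and Per3), 6 fell and 8 were not called, against 11.4% higher and 9.82% lower over all genes, with a list median of -0.21. Nfil3, a repressor of clock-output genes, had 56.0 ± 5.60 normalized counts in ATF3 and 313 ± 57.7 in Null, and Bhlhe41, also a repressor, 116 ± 24.8 in ATF3 and 338 ± 66.0 in Null (SD, n = 4 each). Their log2 changes were -2.45 (limma adjusted p = 3.15e-06) and -1.54 (adjusted p = 0.000279), while Per2 rose by 0.76 (adjusted p = 0.00203). Times of collection are not given in the labels, and the part of the clock in the Elovl3 result was not tested.

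Likeness of pattern was measured for the gene of each branch with the highest mean TPM over all 8 libraries. It was the root mean square difference of mean-centred log2 values over the 8 libraries, among 10045 genes with a mean of at least 100 normalized counts. In Null alone, Fads2 (mean TPM 217) and Elovl2 (123) lay above Elovl5 (107), so the choice of Elovl5 rests on the ATF3 group. Nearest to Elovl5 were Mtmr7 (0.11), Ces2e (0.18) and Thrsp (0.18). Nearest to Scd1 were Lpin1 (0.15), Gm38396 (0.25) and Ces1e (0.27), and nearest to Elovl3 were Rhbg (0.13), C4bp (0.15) and Cyp7b1 (0.15). Lpin1, the phosphatidate phosphatase gene, changed by -1.24 (limma adjusted p = 0.00782) and so moved with Scd1 both between the groups and among the Null libraries. Cyp7b1, an oxysterol hydroxylase gene, changed by -0.80 (adjusted p = 0.00492). Distances are descriptions over these 8 libraries, and the step between the groups is part of each.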

How the data were processed

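RNA from mouse liver, 4 libraries per group, was measured with a stranded total RNA kit, per the labels' protocols. Bowtie2 and mm10 are named in the submitters' processing notes, while the counter and annotation were not stated there. In 1 table the authors deposited a signal, read from the file's name and values as estimated reads per gene divided by a DESeq factor per library and called normalized counts here. Its values are not whole: at most 26.7% of low values per library lay within 0.01 of a multiple of 1 step, so reads were not recovered. The other deposited table holds TPM by the authors. No count model was run.

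Genes reaching 10 in 4 or more libraries entered limma 3.58.1 (R 4.3.3) on log2(value + 1), which understates changes of low genes, with a term for group and eBayes with a trend, two-sided, Benjamini-Hochberg over 13301 genes, threshold 0.05. The procedure was tested on simulated data. No pair of libraries had more than 10 identical values in tested genes. Intervals are 95%. Library numbers follow the order of accession and pair nothing. No p is given for a branch or list.

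The members and lists were chosen with earlier results of these data known. Named are all 10 genes, Atf3, the 3 genes of each list with the smallest p, all called genes of the 3 lists of partner enzymes, and the nearest 3 in pattern; Adipoq, Plin1, Krt19, Epcam, Mir6236, Cidea, Krt7, Spp1, called marker genes, Acaca, Acacb, Cers2, Abcd3, Per3 and the other calls of the regulator list were named after their values were seen. Some genes that this rule names are not reported here. Coordinates and 31-base stretches come from GENCODE vM21 (GRCm38), promoters from RefSeq, and protein sequences were not used here. Python 3.11.15, pandas 2.3.3 and matplotlib 3.10.9 made tables and figures. Alternatives covered the value added, filters, scaling, TPM, variance model, library weights and each library left out.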

Additional observations from a re-analysis of the deposited data

Results flagged for a closer look

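Dixon's gap test was applied to the normalized counts of 41 genes in each group, 82 groups of 4 in all. These were the 10 genes, Atf3 and the list genes named by smallest p or by call in the 3 lists of partner enzymes. Cell markers, genes named only for their pattern and genes named after their values were seen were not screened. Chance flags about 1 in 20 such groups. None of the 10 desaturase and elongase genes was flagged. Hacd2 stood apart in Null 4 at 569.8, against 1298 to 1334 in the other Null libraries. Fads6 stood apart in Null 4 at 1168, against 952 to 985. Cyb5b stood apart in ATF3 2 at 19351, against 16821 to 17241 in the other ATF3 libraries. Nfil3 stood apart in ATF3 4 at 47.7, against 58.2 to 59.4. Per2 stood apart in Null 3 at 526, against 654 to 679.9.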

How the results depend on the processing

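Elovl5 kept its direction and its call in all alternatives, and Elovl2 and Elovl3 in all but the deposited TPM. In unscaled TPM, 1 of the 10 genes was called higher and 0 lower (limma, with Elovl5 as that gene), with 440 higher and 76 lower over all genes and 2 higher and 0 lower in the pathway lists. The branch medians were then 1.50 (polyunsaturated), 0.0901 (monounsaturated) and 0.77 (saturated), against a median of 0.68 for all genes. Signs turned in TPM for Elovl1 (0.77), Elovl3 (0.14), Elovl6 (0.83), Fads3 (0.11), Scd2 (0.26), Acsl1 (0.62), Cers4 (0.21), Cyb5a (0.52), Dgat2 (0.14), Fads6 (0.78), Hacd2 (0.18), Mboat7 (0.57) and Slc27a2 (0.73). TPM rescaled by median of ratios turned none of these. The Elovl6 change also turned sign with equal column sums (0.0589), library weights (0.13) and without ATF3 1 and Null 1 (0.18), and ran from -0.231 to 0.0706 with each library left out.

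Equal column sums gave 2472 higher and 837 lower genes, 31 and 8 in the pathway lists, and -0.0129 for the saturated branch. Library weights gave 2271 and 2130, with 25 lower in the lists. Leaving out each library in turn gave 851 to 1812 lower genes, 8 to 20 lower genes in the lists and 1 to 2 lower members. Leaving out Null 1 and Null 3 (chosen after seeing the data) gave 889 higher and 808 lower genes. Without ATF3 1 and Null 1 (also chosen then) 1 member and 8 list genes were lower. Exact permutation of each gene alone gave 1 lower member (Elovl3) and 3 higher (Elovl2, Elovl5, Fads1), unadjusted. Fads1 passed with equal column sums (adjusted p = 0.0055), equal upper quartiles (0.0347), library weights (0.00571) or a filter at 100 (0.0488), and Scd2 with library weights (0.0418). Fads3 has no value with the filter at 100. No paired analysis was possible because the labels give no replicate numbers shared between the groups. Values rest on 4 libraries a group, and depth as a limit was not tested. The causes were not tested.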
